A study of Mus musculus with 2 samples.

Results

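The E2F transcription factors and the retinoblastoma-related pocket proteins were followed through single cells of mouse medulloblastoma. The members were chosen by name: the activators E2f1, E2f2 and E2f3, the repressor-type E2f4 and E2f5, the atypical repressors E2f7 and E2f8, and the pocket proteins Rb1, Rbl1 and Rbl2. All 10 are among the 16551 genes listed at both ages. Tumour cells of hGFAPcre;Ptchc/c mice were profiled by Drop-seq, a droplet method that reads the 3′ ends of transcripts with a barcode per cell. There was 1 library from mice at postnatal day 12 (P12) and 1 from mice at postnatal day 24 to 30 (P24-30). Both libraries share this genotype, in which Cre recombinase acts on a conditional allele of Ptch1, the receptor that restrains Hedgehog signalling. The human GFAP promoter drives Cre broadly in neural progenitors, so the deletion is not limited to the granule neuron lineage. How many tumours or mice stand behind each library is not stated, and no cells without the deletion were part of the comparison. With 1 library per age, no p-value is given anywhere. Effects of age, of preparing each library and of counting each file cannot be told apart.

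E2F proteins bind DNA with a DP partner and switch on the genes needed for DNA replication. In resting and early G1 cells the pocket proteins hold them inactive, and cyclin-dependent kinases release them by phosphorylation. E2f7 and E2f8 bind the same sites without a DP partner and shut the targets down again later in the cycle, and several members are known E2F targets themselves. In the cerebellum, Hedgehog signalling keeps granule neuron progenitors in the cycle, and their exit from it precedes neuronal differentiation.

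Because E2F family genes are known targets of E2F proteins, their promoters were searched for the E2F motif. Of the 10 members, 7 had a promoter window in the RefSeq table used here, which spans 250 bases before to 50 bases after each annotated start in build GRCm38.p6. E2f4, E2f5 and Rb1 had none. The E2f1 window, with its upstream part at chr2:154569427-154569676, lies inside the GENCODE gene, which on the minus strand begins at 154569892. Sequence before that beginning of E2f1 was therefore not searched. The motifs searched were TTTGGCGC, TTTCCCGC, TTTGCCGC and TTTCGCGC, on both strands and with overlaps allowed. A match was present in 744 of all 32851 windows (2.27%), in 704 of 27025 genes (2.61%), and in 4 of the 7 member genes (E2f2, E2f3, E2f7 and Rbl1). These 7 genes had 9 windows, and 4 of the 9 had a match. E2f2 and E2f3 each had a further window without a match, at chr4:136180532-136180831 and chr13:29984342-29984641. The E2f2 and E2f3 windows described below are those with a match. The match of E2f2 lies after the RefSeq start of its window and is not printed. That whole window ends at 136172323, before the GENCODE start of E2f2 at 136172394. The other matches lie upstream of the RefSeq start. Each sequence below is the 250 bases before the start, written 5′ to 3′ on the strand of the gene, with the match in capitals. They are E2f3 at chr13:29986064-29986313 (minus strand, match starting 11 bases before the start), Rbl1 at chr2:157204535-157204784 (minus strand, 18 bases before), E2f7 at chr10:110745189-110745438 (plus strand, 198 bases before) and E2f8 at chr7:48881597-48881846 (minus strand, no match). E2f3, E2f7 and Rbl1 are shown because they are the members with an upstream match, and E2f8, the other atypical repressor, is shown as a window without these letters. A match is a description of the letters and does not show that a factor binds there.
E2f3 promoter: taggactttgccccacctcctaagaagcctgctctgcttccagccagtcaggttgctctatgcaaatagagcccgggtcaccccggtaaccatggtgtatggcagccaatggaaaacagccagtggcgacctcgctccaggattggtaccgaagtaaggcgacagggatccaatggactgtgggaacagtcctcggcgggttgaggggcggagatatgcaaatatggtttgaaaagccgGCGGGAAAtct
Rbl1 promoter: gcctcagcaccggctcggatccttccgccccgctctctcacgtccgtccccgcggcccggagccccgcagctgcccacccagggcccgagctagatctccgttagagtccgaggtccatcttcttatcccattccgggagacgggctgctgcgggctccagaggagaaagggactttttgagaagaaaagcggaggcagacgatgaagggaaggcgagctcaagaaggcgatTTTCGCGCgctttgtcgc
E2f7 promoter: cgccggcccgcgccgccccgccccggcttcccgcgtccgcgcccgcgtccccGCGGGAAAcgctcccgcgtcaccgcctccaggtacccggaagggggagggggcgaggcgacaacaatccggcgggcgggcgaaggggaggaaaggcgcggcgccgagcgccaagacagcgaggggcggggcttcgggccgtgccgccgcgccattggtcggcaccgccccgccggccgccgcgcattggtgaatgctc
E2f8 promoter: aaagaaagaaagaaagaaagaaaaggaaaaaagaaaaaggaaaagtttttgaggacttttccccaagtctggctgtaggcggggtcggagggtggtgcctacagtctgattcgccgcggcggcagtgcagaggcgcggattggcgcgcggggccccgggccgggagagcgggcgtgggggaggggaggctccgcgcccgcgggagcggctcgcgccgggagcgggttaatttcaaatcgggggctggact

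The P12 library held 12265399 counts over 6000 barcodes. The P24-30 library held 12256463 unique molecular identifiers (UMIs, each standing for a captured transcript) over 4991 cells. The P12 counts are called UMIs here, though the labels do not say whether they were collapsed by UMI. Barcodes below 500 UMIs or above 20% mitochondrial UMIs were dropped, and cells carrying markers of glial, immune, vascular or other non-tumour types were set aside, which left 5458 cells at P12 (median 1794 UMIs) and 4592 at P24-30 (median 2181). Levels are given in CPM, the UMIs of a gene scaled to 1000000 UMIs of its group. The targeted gene Ptch1 had 1786 UMIs at P12 (159.4 CPM) and 143 at P24-30 (12.6 CPM), but reads from its 3′ end say nothing on the deleted part. The P12 cells were clustered without the 10 members and the clusters named from marker lists. The P24-30 cells were grouped by the tags G1 to G16 in the deposited column names, which the labels do not explain and which may have been made from the same values. Named groups were G1/S licensing (983 cells at P12; tag G3, 216 cells), histone-high S phase (1017; tag G2, 878), mitotic (1040; tags G1 and G16, 749) and neuron-like, for differentiating granule neurons (558; tags G11 to G14, 1081). A further 1018 cells at P12 were named Hes1-type progenitor. No name was given to 842 cells at P12 (15.4%) and 1668 at P24-30 (36.3%). Among the neuron-like tags, G12 had Notch1 and G14 had Ttr among the 10 leading genes, which belong to other lists. G11, G12 and G14 had no gene of the neuron list among their 10 leading genes, while G13 had Cntn2 and Neurod1. Neuron-like cells were therefore not compared between ages.

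Levels are compared between groups for each gene and not between genes. Intervals in brackets are exact Poisson or Clopper-Pearson 95% intervals and cover counting error only, since 1 library stands behind all cells of an age. Intervals that use P12 counts take each count as 1 transcript and are too narrow if those counts were not collapsed. A ratio was counted as called when it was at least 2 or at most 0.5 and the gene had at least 50 UMIs over both groups.

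Among the activators, E2f1 and E2f3 were highest in G1/S licensing cells at both ages, and E2f2 at P12. E2f1 (on chromosome 2, 154559407 to 154569892, minus strand, mm10), which switches on replication genes and can also promote apoptosis, was at 91.8 CPM in G1/S licensing cells at P12, 61.5 in S phase cells, 28.0 in mitotic cells, 45.1 in Hes1-type progenitors and 21.9 in neuron-like cells. The G1/S interval (79.1–106) lay above those of the 4 other states. At P24-30, E2f1 was again highest in G1/S tag G3, at 99.7 CPM (76.5–128), with 69.9 in S phase tag G2, 36.1 and 28.2 in mitotic tags G1 and G16, and between 19.2 (G12) and 48.1 (G13) in the neuron-like tags. Of the 14 tags with at least 50 cells, 6 had an E2f1 interval wholly below that of G3. Levels of 59.4 to 71.2 CPM were seen in the unnamed tags G4, G5, G6, G7 and G15. Of these, G5 and G6 were closest to the G1/S licensing markers without reaching the limit for a name, and Ung, Mcm3 and Cdc6 were among the leading genes of G6. G4, G7 and G15 were not, and their summed S lists were at 2806, 3891 and 3315 CPM against 6433 CPM in G6. E2f1 in these tags lay above both mitotic tags, with intervals clear of them for G6 (49.6–81.0) and G7 (53.5–92.9) and overlapping that of G1 for G4, G5 and G15. Neighbours in the order of tags did not differ beyond counting error for any of the 10 members.

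E2f2 (chromosome 4, 136172394 to 136196057, plus strand), a close relative of E2f1, was at 40.5 CPM in G1/S cells at P12, 31.6 in S phase cells, 7.09 in mitotic cells, 4.10 in Hes1-type progenitors and 4.61 in neuron-like cells. It was thus a gene of the first part of the cycle at P12, with a gap between the S phase interval (24.8–39.8) and the mitotic interval (4.33–10.95). At P24-30 it was highest in S phase tag G2 at 23.2 CPM (17.8–29.7), with 17.7 in G3. Mitotic tags G1 and G16 had 17.6 and 9.90 CPM of E2f2 (13.6 over both), and no UMI was found in G10 or G12. For G12 a count of 0 allows up to 9.62 CPM (3 counts). E2f3 (chromosome 13, 29906575 to 29986063, minus strand), an activator with a long and a short isoform, was at 119 CPM in G1/S cells at P12, 79.8 in S phase, 53.2 in mitotic cells, 54.5 in Hes1-type progenitors and 27.7 in neuron-like cells. At P24-30 E2f3 was at 67.6 CPM in G3 (48.7–91.3), 46.4 in G2, 27.1 over the mitotic tags and 24.4 over the neuron-like tags. The order of the states at P12 was the same as for E2f1, and 9 of the 14 tags at P24-30 lay wholly below G3.

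**Figure D1:**
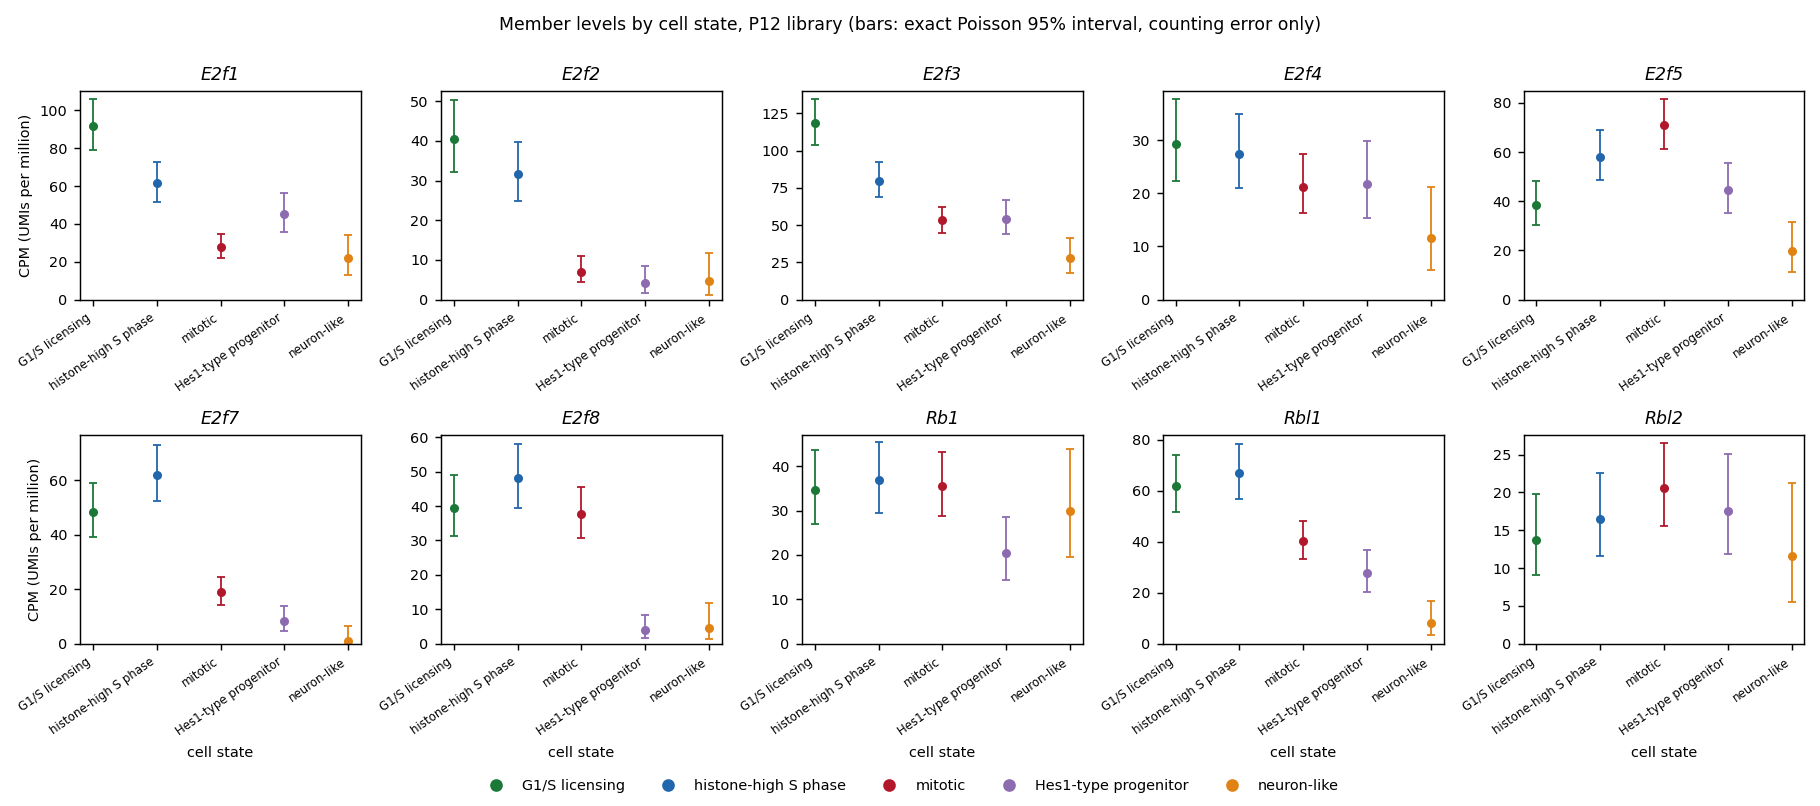
Level of each member (CPM, linear axis) in the P12 states, with points for the summed UMIs of a state and bars for the 95% Poisson interval (counting error only). E2f1 and E2f3 peak in G1/S licensing cells (91.8 and 119 CPM), E2f5 in mitotic cells (70.9 CPM), and E2f7 is at 1.15 CPM in neuron-like cells.

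Of the repressor-type members, E2f4 varied little within the cycle and E2f5 peaked in mitosis. E2f4 (chromosome 8, 105297663 to 105305370, plus strand), which sits with pocket proteins on silent cell-cycle genes in resting cells, ranged from 21.3 to 29.3 CPM over the 3 cycling states at P12, with 21.7 in Hes1-type progenitors and 11.5 (5.53–21.2) in neuron-like cells. At P24-30 its level was 16.1 CPM in G3, 19.8 in G2, 15.2 over the mitotic tags and 15.4 over the neuron-like tags, and no tag lay wholly below the highest. E2f5 (chromosome 3, 14578641 to 14606309, plus strand), the other pocket protein partner of this type, ran the opposite way to E2f1 within the cycle. At P12 it was at 38.6 CPM in G1/S cells, 58.1 in S phase, 70.9 in mitotic cells, 44.5 in Hes1-type progenitors and 19.6 in neuron-like cells. At P24-30 it was at 20.9 CPM in G3, 26.6 in G2, 49.5 in G1 and 67.0 in G16, and 10 of the 14 tags lay wholly below G16 (53.7–82.6).

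The atypical repressors were found mostly in cycling cells. E2f7 (chromosome 10, 110745439 to 110787384, plus strand) was at 48.3 CPM in G1/S cells at P12, 62.0 in S phase cells, 18.8 in mitotic cells and 8.20 in Hes1-type progenitors. In neuron-like cells 1 UMI was counted, 1.15 CPM (0.0292–6.42). At P24-30 E2f7 was at 14.5 CPM in G3, 32.2 in G2 (25.7–39.7), 18.4 over the mitotic tags and 3.19 over the neuron-like tags, and 9 of the 14 tags lay wholly below G2. E2f8 (chromosome 7, 48866429 to 48881596, minus strand), its partner in this group, was at 39.5, 48.1 and 37.6 CPM in the G1/S, S phase and mitotic cells at P12, 4.10 in Hes1-type progenitors and 4.61 in neuron-like cells. At P24-30 it was at 19.3 CPM in G3, 32.9 in G2, 29.4 in G1 and 38.8 in G16, and no UMI was found in tags G4, G7 and G11. The 328 cells of G7 held 758589 UMIs, so its count of 0 allows up to 3.96 CPM of E2f8 (3 counts), while E2f1 stood at 71.2 CPM (53.5–92.9) in the same cells.

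At P12 an unnamed cluster of 552 cells also had high E2f1 beside low E2f8. It was closest to the neuron-like markers without reaching the limit for a name, with a neuron list at 5369 CPM against 17262 CPM in neuron-like cells. Its leading genes included Chrna3, Sstr2, Slc17a6 and Tubb3, and E2f1 was at 84.6 CPM (67.3–105), within the G1/S interval. E2f7 was at 6.19 CPM (2.27–13.5) and E2f8 at 2.06 CPM (0.25–7.46) there, against 48.3 and 39.5 CPM in G1/S cells. The summed S list of replication genes was at 4724 CPM in that cluster and 12984 CPM in G1/S cells. E2f1 therefore stood at its G1/S level in a group whose E2f7, E2f8 and S list levels were all below those of G1/S cells. Another unnamed P12 cluster, of 226 cells, had E2f1 at only 30.1 CPM (15.6–52.6). At P24-30 the E2f7 interval of G7 (1.44–13.5) overlapped that of G3 (6.62–27.5).

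Among the pocket proteins, Rbl1 (p107; chromosome 2, 157145893 to 157204534, minus strand), known as an E2F target, was at 62.0 CPM in G1/S cells at P12, 66.8 in S phase cells, 40.1 in mitotic cells, 27.5 in Hes1-type progenitors and 8.07 (3.24–16.6) in neuron-like cells. At P24-30 it was at 20.9 CPM in G3, 40.8 in G2, 25.9 over the mitotic tags and 6.37 over the neuron-like tags. Its highest tag, G10, rests on 3 UMIs in 71 shallow cells, and its wide interval (9.97–141) overlaps those of all the other tags. Rb1 (chromosome 14, 73183673 to 73325822, minus strand), the retinoblastoma protein itself, was at 34.7, 36.8 and 35.5 CPM in the G1/S, S phase and mitotic cells at P12, 20.5 in Hes1-type progenitors and 30.0 in neuron-like cells. At P24-30 it was between 11.3 and 19.5 CPM in the cycling states and had an interval of 11.6–24.0 over the neuron-like tags. Rbl2 (p130; chromosome 8, 91070057 to 91123844, plus strand), the pocket protein that builds up in resting cells, was at 13.7, 16.5 and 20.6 CPM in the cycling states at P12, 17.6 in Hes1-type progenitors and 11.5 in neuron-like cells. At P24-30 Rbl2 was at 16.1 CPM in G3, 9.72 in G2, 14.4 over the mitotic tags and 20.2 over the neuron-like tags. With at most 52 UMIs of Rb1 and 26 of Rbl2 in any tag, their order over the tags could not be resolved at this depth.

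**Figure D2:**
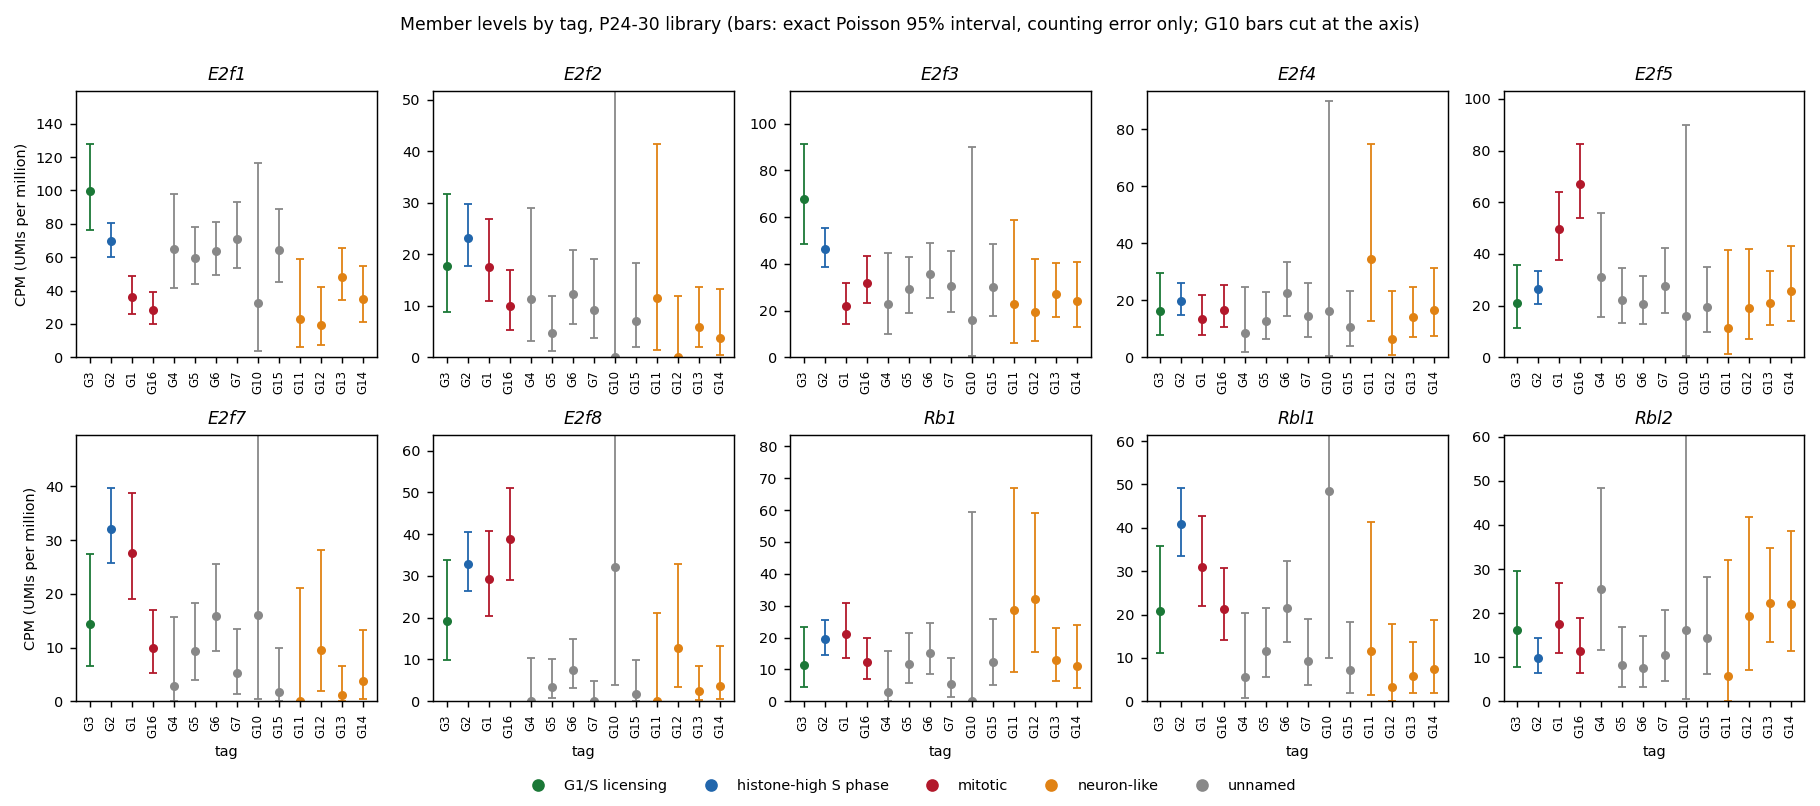
Level of each member (CPM, linear axis) in the P24-30 tags with at least 50 cells, with bars for the 95% Poisson interval (counting error only). E2f1 is highest in G3 (99.7 CPM) and stays at 59.4 to 71.2 CPM in G4, G5, G6, G7 and G15, where E2f8 is at 0 to 7.52 CPM; G5 and G6 are closest to the G1/S markers, the others are not.

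Reads at the 3′ end of a member can belong to a neighbour where transcripts overlap, and the labels do not say whether strand was used in counting. Within the last 600 bases of each member, 50-base stretches were shared with another gene only for Rbl2, where 38.2% also lie in Aktip on the opposite strand. Reads from Rbl2 and Aktip cannot be told apart there without strand, and Aktip was itself higher in neuron-like than in cycling cells, 2.28-fold at P12 (1.79–2.89) and 1.50-fold at P24-30 (1.18–1.89). The Rbl2 values are therefore uncertain. The end of Rb1 overlaps Rcbtb2, whose ratio was 0.680 at P12 and 0.874 at P24-30, and those of E2f5 and E2f7 overlap minus-strand genes that are not listed in the files under the names used.

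The share of a member's UMIs that fell in cycling states was highest for E2f8, E2f7, E2f2 and Rbl1 at both ages. The cycling states held 64.1% of all UMIs of the 5458 cells at P12. They held 94.0% of the E2f8 UMIs, 91.9% of E2f7, 88.0% of E2f2 and 81.2% of Rbl1, but 67.9% of E2f1 and 69.3% of Rbl2. The other members lay between, from 71.2% (E2f4) to 74.8% (E2f3). At P24-30 the cycling states held 51.1% of all UMIs, with 89.4% of E2f8, 78.8% of E2f7, 75.4% of Rbl1 and 72.3% of E2f2, against 52.0% of E2f1 and 47.7% of Rbl2. The others again lay between, from 54.3% (E2f4) to 64.9% (E2f5).

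Leaving the cycle was then taken as a comparison, neuron-like over cycling cells within each library. At P12, 8 of the 10 members were at least 2-fold lower in neuron-like cells, where 16% of 10268 genes were. The ratio was 0.0280 for E2f7 (0.000708–0.158, 1 against 295 UMIs), 0.111 for E2f8 (0.0301–0.287), 0.147 for Rbl1 (0.0587–0.306) and 0.188 for E2f2 (0.0507–0.490). These 4 were the lowest and had intervals below 0.5. E2f5 was at 0.341 (0.196–0.552), E2f3 at 0.344 (0.219–0.517), E2f1 at 0.384 (0.229–0.608) and E2f4 at 0.452 (0.213–0.850), so their intervals reach past 0.5. Rb1 at 0.840 (0.539–1.26) and Rbl2 at 0.667 (0.312–1.27) had intervals that include 1. The E2f1 ratio moved by more than 1.5-fold, to between 0.68 and 0.82, under other cell filters, a finer clustering or score ranges, and its call was kept in 5 of 10 alternatives. The E2f4 call was kept in 7 of 10 (ratio up to 0.590) and that of E2f3 in 9 of 10.

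At P24-30, 4 of the 10 members were at least 2-fold lower in neuron-like tags, where 7.74% of 9651 genes were. They were E2f7 at 0.131 (0.0473–0.293), E2f8 at 0.133 (0.0564–0.267), Rbl1 at 0.198 (0.100–0.354) and E2f2 at 0.259 (0.115–0.511). The ratios of E2f5 (0.534, 0.372–0.749), E2f3 (0.606, 0.432–0.834) and E2f1 (0.656, 0.499–0.851) were below 1 but not past 2-fold. With mitotic tag G16 alone as the cycling group, the E2f1 ratio turned to 1.32. E2f4 at 0.885 (0.564–1.35) and Rb1 at 0.986 (0.641–1.48) had intervals that include 1. Rbl2 was the member with a ratio above 1, at 1.63 (1.07–2.44). E2f2, E2f7, E2f8 and Rbl1 were called at both ages and under every alternative in which they could be counted. Without G12 and G14, 5 members were called.

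Depth and other RNA moved with these comparisons. Neuron-like cells held a median of 1426 UMIs against 2087 in cycling cells at P12, and 1661 against 2809 at P24-30. Malat1, a nuclear RNA, was at 24274 CPM in neuron-like cells and 12843 to 15085 CPM in the cycling states at P12, and at 8144 against 4308 to 5547 CPM at P24-30. The 10 oligodendrocyte-lineage markers summed to 418 CPM against 287 to 314 at P12, with 5 of the 10 at 0 in neuron-like cells, and to 373 against 190 to 227 at P24-30. The 6 choroid plexus markers summed to 42.6 CPM against 26.9 to 39.0 at P12 and to 298.5 against 93.5 to 114 at P24-30. Mitochondrial RNA was at 83376 against 72038 to 76833 CPM at P12 and at 32359 against 23673 to 26243 CPM at P24-30. At P24-30 the astrocyte markers (105.7 against 53.1 to 72.6 CPM), the vascular markers (24.97 against 10.5 to 12.9) and the erythroid markers (38.8 against 15.97 to 21.7) were also higher. Their part in the result was not tested.

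**Figure D3:**
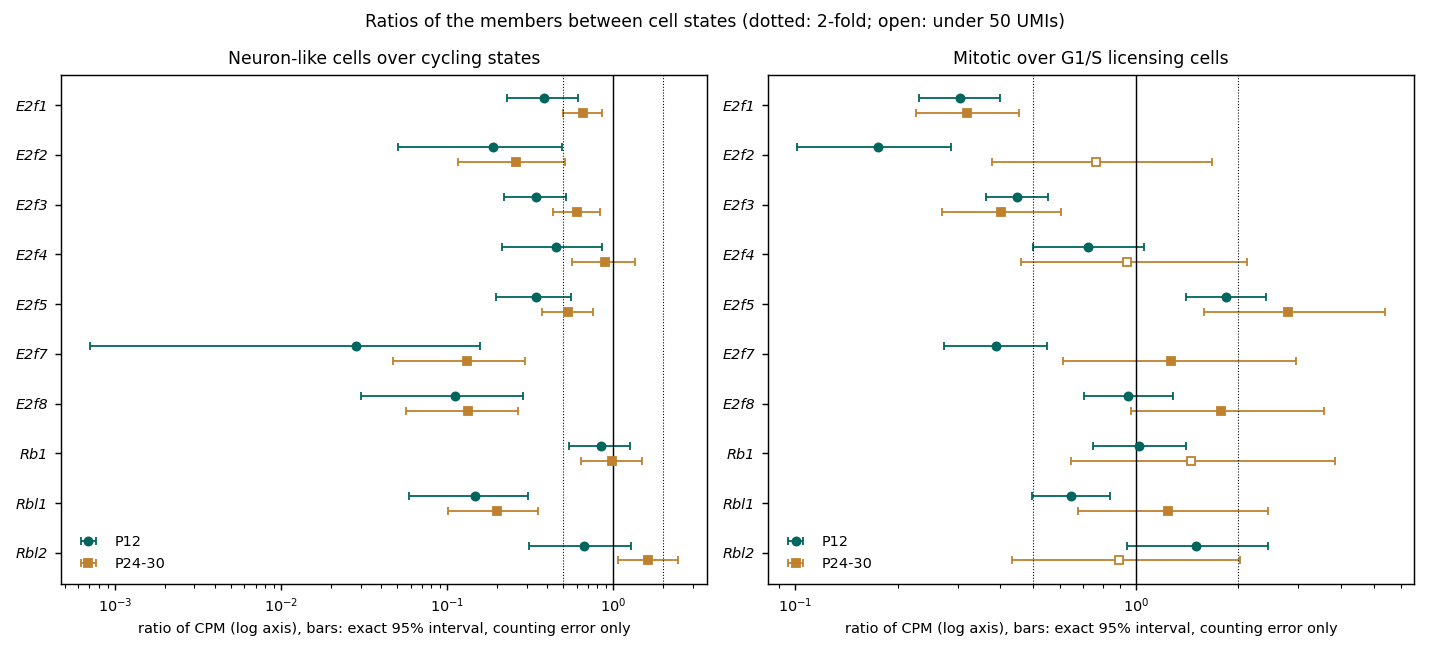
Ratio of each member's level between groups of cells within a library (log axis), with exact 95% intervals for counting error and the 2-fold limits marked. E2f2, E2f7, E2f8 and Rbl1 lie below 0.5 in neuron-like cells at both ages, and E2f5 lies above 1 in mitotic over G1/S cells.

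Within the cycle, mitotic cells were set against G1/S licensing cells. At P12, 4 of the 10 members differed by at least 2-fold, where 8.41% of 8902 genes did (4.79% lower and 3.63% higher), and all 4 were lower in mitotic cells. E2f2 was at 0.175 (0.102–0.288), E2f1 at 0.305 (0.232–0.399), E2f7 at 0.389 (0.273–0.548) and E2f3 at 0.448 (0.363–0.552). The calls of E2f1 and E2f2 were kept in all 9 alternatives, that of E2f3 in 8 and that of E2f7 in 7 (ratio up to 0.618). Rbl1 was lower by less, at 0.646 (0.497–0.839), and E2f5 was higher, at 1.84 (1.41–2.42). E2f8 at 0.951 (0.705–1.29), Rb1 at 1.02 (0.747–1.41) and Rbl2 at 1.51 (0.943–2.45) had intervals that include 1. E2f7 and E2f8, which share a protein type, thus parted within the cycle at P12. The difference between their ratios was not tested, but the interval of E2f7 ended below that of E2f8.

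At P24-30, 6 members had 50 UMIs over the mitotic and G1/S tags, and 3 of them differed by at least 2-fold, where 9.29% of 6825 genes did (2.96% lower and 6.33% higher). E2f1 at 0.320 (0.227–0.454) and E2f3 at 0.402 (0.270–0.605) were lower in mitotic tags, and E2f5 at 2.81 (1.59–5.40) was higher. E2f8 was at 1.78 (0.967–3.58), and E2f7 at 1.27 and Rbl1 at 1.24 also had intervals that include 1. Of 8 alternatives, the E2f1 call was kept in 8, that of E2f5 in 7 and that of E2f3 in 6. E2f8 passed the 2-fold limit in 3 of 7 alternatives, with a ratio up to 3.03. E2f2, E2f4, Rb1 and Rbl2 had too few UMIs in G3 and the mitotic tags to be counted.

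Cells were also placed in 4 ranges of an S score and a G2M score, each the number of UMIs of a replication list and a mitosis list among 1000 UMIs drawn per cell, split at the library median. These are ranges and not cell types: 25.4% of the 5312 cells at P12 and 37.9% of the 4392 cells at P24-30 lay within 1 UMI of a limit. Cells low in both scores had 44.0 CPM of E2f1 at P12 and cells high in both had 64.0, a ratio of 0.687 (0.547–0.860). For E2f7 the same ranges had 3.57 and 54.5 CPM, a ratio of 0.0656 (0.0309–0.123). At P24-30 the E2f1 levels were 50.3 and 63.2 CPM, a ratio of 0.795 (0.649–0.972), and the E2f7 levels 2.11 and 29.0 CPM, a ratio of 0.0726 (0.0285–0.155). The E2f1 ratio was thus much nearer to 1 than that of E2f7 at both ages, and the intervals did not overlap. E2f8 had ratios of 0.0580 at P12 and 0.0350 at P24-30 and Rbl1 0.279 and 0.159. The median gene with at least 50 UMIs was at 1.09 and 1.11.

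Between the ranges high in a single score, E2f1 was at 28.3 CPM in G2M-high and 82.5 CPM in S-high cells at P12, a ratio of 0.342 (0.258–0.451). E2f5 ran the other way, at 66.4 against 40.5 CPM, a ratio of 1.64 (1.26–2.15). At P24-30 the ratios were 0.432 (0.323–0.574) for E2f1 and 1.78 (1.25–2.58) for E2f5. E2f8 was higher in G2M-high cells at both ages, at 1.57 (1.09–2.31) and 3.03 (1.63–6.05). Over both libraries, 17 of 20 member and library pairs had their highest level in a range high in the S score, 9 of 10 at P12 (43.3% of 11192 genes) and 8 of 10 at P24-30 (41.4% of 10500 genes). Nothing was tested on this count.

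**Figure D4:**
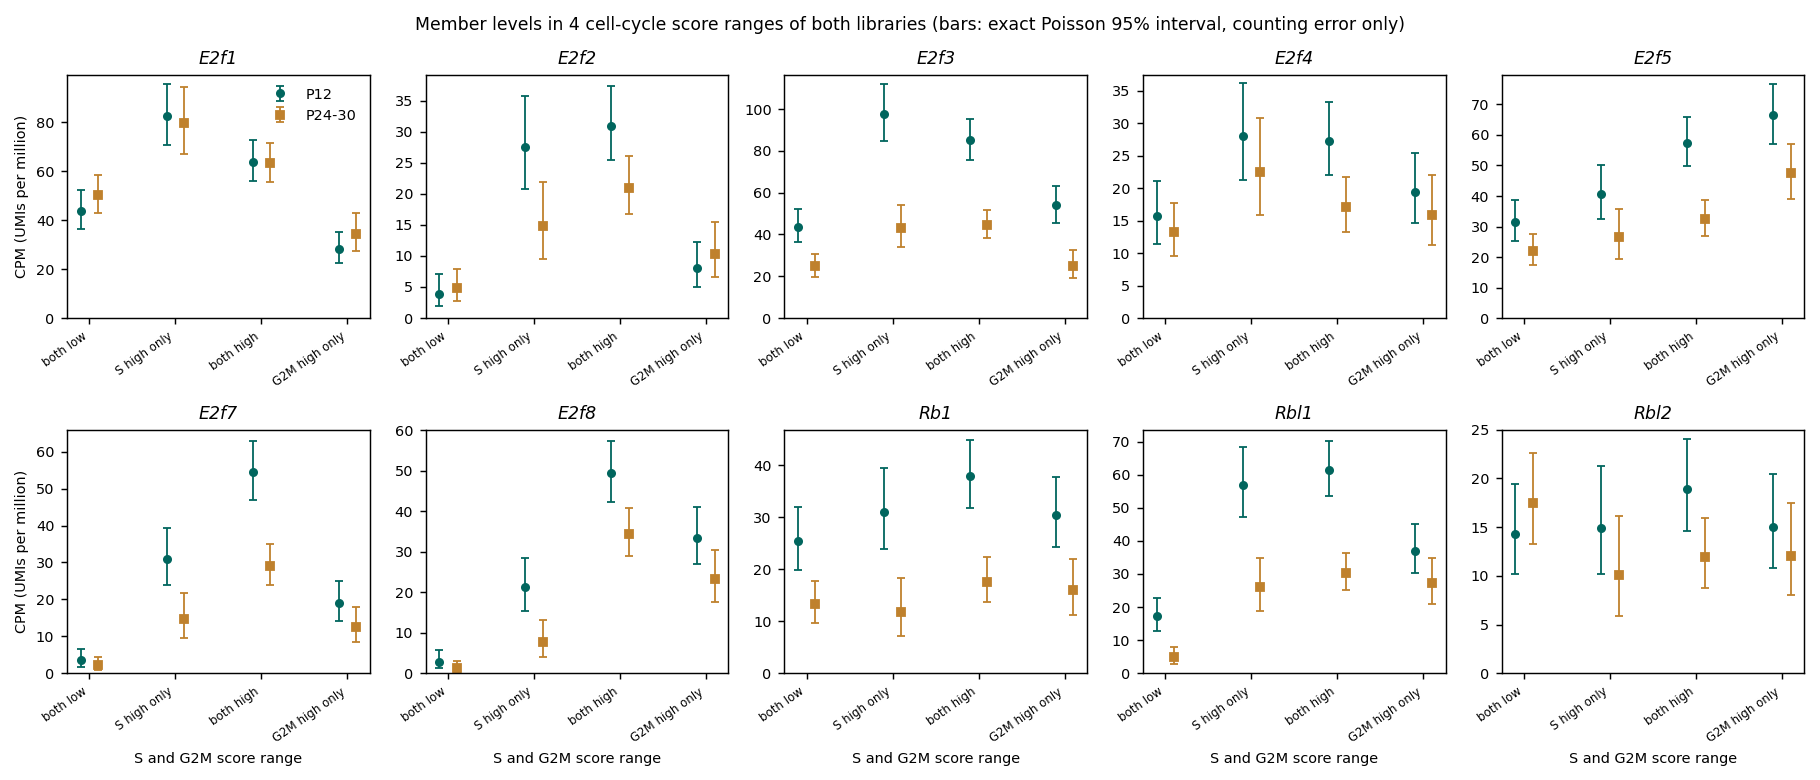
Level of the members (CPM, linear axis) in cells low in both scores, high in S only, high in both and high in G2M only, at P12 and P24-30, with 95% Poisson intervals for counting error. E2f7 goes from 3.57 to 54.5 CPM between the both-low and both-high ranges at P12, while E2f1 goes from 44.0 to 64.0 CPM.

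The genes that work with the members were taken as lists, chosen by role. Of the 32 canonical E2F targets, all 32 were at least 2-fold lower in neuron-like cells at P12 (median log2 ratio -2.75, against -0.03 over all genes), with Orc1, at 0 against 64 UMIs, placed at 3 counts. At P24-30, 29 of 31 were lower (median -2.22, all genes 0.17), and Brca1 was at 0 against 248 UMIs. Of the 32 targets, 21 are also markers used to name the cycling states and 20 are in a score list, so this count partly restates the naming. The 5 targets in neither were all lower in both libraries. In mitotic over G1/S cells, 28 of 32 targets were lower at P12 (4.79% of all genes) and 18 of 30 at P24-30 (2.96% of all genes). This count also partly restates the naming. Of the 5 targets in neither, 3 were lower there at P12 and 1 at P24-30.

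Among the dimer partners, Tfdp1, the DP subunit of most E2F complexes, was lower in neuron-like cells at P12 (0.298, 0.147–0.541) and at P24-30 (0.283, 0.119–0.584). Tfdp2, the other DP subunit, was at 1.07 (0.880–1.29) and 0.797 (0.636–0.991). E2f6, a repressor that binds no pocket protein, was at 0.396 and 0.605, and in mitotic over G1/S cells at 0.389 and 0.399. Of the cyclins and kinases that act on pocket proteins, 7 of 9 were at least 2-fold lower in neuron-like cells at P12 and 4 of 9 at P24-30, beside 16% and 7.74% of all genes. Ccna2, cyclin A of S phase and mitosis, was at 0.0262 and 0.0211. Ccnd2, a D-type cyclin that starts pocket protein phosphorylation, was at 0.635 (0.589–0.684) at P12 and 1.27 (1.21–1.34) at P24-30. Of the CDK inhibitors, 2 of 5 and 4 of 6 were lower, and Cdkn1b, the p27 inhibitor, was higher by less than 2-fold, at 1.64 (1.47–1.83) and 1.59 (1.45–1.74).

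The MuvB complex joins E2f4 or E2f5 and Rbl1 or Rbl2 to silence cell-cycle genes, and B-Myb and FoxM1 replace them there when the genes are active. In neuron-like cells 4 of 7 genes of this list were at least 2-fold lower at P12 and 5 of 8 at P24-30. Foxm1 was at 0.0398 at P12 (0.00100–0.224, 1 against 208 UMIs), and in mitotic over G1/S cells at 2.35 at P12 and 6.66 at P24-30. Of the chromatin partners of pocket proteins, 3 of 8 were lower at P12 (all genes 16%) and 1 of 8 at P24-30 (all genes 7.74%). Rbbp7, a histone-binding subunit, was at 0.311 and 0.461, and Kdm5a, a histone demethylase that binds Rb1, at 1.30 and 1.61. Of the genes for E2F and cyclin turnover, 3 of 6 were lower in neuron-like cells at each age.

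Which genes varied most like a member was measured as Pearson's r of log2(CPM + 20) over the 14 tags, among genes with at least 200 UMIs. The tags share 1 library and differ in depth, so r is a description. E2f1 was most like Cdt1, a replication licensing factor (r = 0.913, and 0.907 over the 8 P12 clusters), and Mcm6, a subunit of the replicative helicase (0.903 and 0.844). The third gene, 2610042L04Rik, was at 0.900 over tags but -0.285 over the P12 clusters. Genes most like E2f3 included Prpf31, a splicing factor gene (0.912 and 0.758), and Tsen34 (0.902 and 0.753). E2f5 was most like Chac2 (0.924 and 0.558), Arl6ip1 (0.920 and 0.613) and Cenpt, a kinetochore protein gene (0.899 and 0.451). E2f8 was most like Knl1, another kinetochore gene (0.916 and 0.726), Dbf4 and Ncapd2. Rbl1 was most like Eif4ebp1 (0.937), Gucy1b1 (0.925) and Brip1, a DNA repair helicase gene (0.920 and 0.893). The other 5 members had fewer than 200 UMIs in the tags. Among members, E2f1 and E2f3 had r = 0.736 over tags and 0.830 over clusters, E2f8 and Rbl1 0.802 and 0.832, and E2f1 and E2f8 -0.173 and 0.403.

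Per cell, the members were caught rarely. With each cell thinned to 500 UMIs, E2f1 had a UMI in 157 of 5458 cells at P12 (2.88%) and in 129 of 4592 at P24-30 (2.81%). Without thinning the shares were 9.67% and 11.7%. Microglia-like cells, assumed to hold little of every member, had E2f1 in 1 of 85 cells (1.18%) and 2 of 54 (3.70%) after thinning. Their median depths were 2091 and 2226 UMIs. The assumption was not tested, and a UMI in these cells need not be free RNA. The main population had the higher share in 14 of 20 pairs of member and library, and its share lay inside the microglia-like interval in all 20. In the 10 pairs where no microglia-like cell had a UMI, a count of 0 allows a share of up to 3.53% of 85 cells or 5.56% of 54 cells. The highest main share, 3.06% (E2f3 at P12), was below both limits. With this few microglia-like cells, no main share could therefore have lain above the interval. At this depth and with so few microglia-like cells, the comparison cannot decide whether a share in the whole population is free RNA. The results above rest on levels that differed between groups of tumour cells.

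Between the ages, no member differed by at least 2-fold once its ratio was divided by that of the median gene, where 14.7% of 11602 genes did (3.65% lower and 11.1% higher). The median gene was at 0.824 (P24-30 over P12, log2 -0.28), and ratios here are relative to it. E2f1 was the member with an interval above 1, at 1.26 (1.13–1.41), from 53.7 CPM at P12 and 55.8 CPM at P24-30, and without the division its ratio was 1.04. Rb1 was at 0.574 (0.475–0.691), from 31.7 CPM at P12 and 14.98 CPM at P24-30, and passed the 2-fold limit without the division, at 0.473. E2f3 at 0.609, Rbl1 at 0.613 and E2f7 at 0.668 followed, and Rbl2 was at 1.01. The same held for E2f1 and Rb1 within each cycling state: E2f1 was at 1.43 (1.05–1.91), 1.46 (1.17–1.83) and 1.42 (1.03–1.96) in G1/S, S phase and mitotic cells, and Rb1 at 0.426 (0.165–0.924), 0.678 (0.471–0.969) and 0.574 (0.389–0.833).

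Other members differed between the ages in some states more than in others. E2f2 was at 2.38 (1.33–4.36) in mitotic cells, from 7.09 CPM at P12 and 13.6 CPM at P24-30, and at 0.573 (0.275–1.08) in G1/S cells. E2f7 was at 0.393 (0.175–0.776) in G1/S cells, where tag G3 held 9 UMIs, and at 1.22 (0.801–1.84) in mitotic cells. E2f5 was at 0.587 (0.434–0.789) in S phase cells and 1.03 (0.826–1.28) in mitotic cells. E2f3 was at 0.635 (0.469–0.851) in mitotic cells. Whether these state ratios differ from each other was not tested, and the states were formed by clustering at P12 and by the deposited tags at P24-30.

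Of the CDK inhibitor list, 2 of 7 genes were at least 2-fold higher at P24-30, beside 11.1% of all genes. Cdkn2a encodes the CDK inhibitor INK4A and the p53 activator ARF, and was at 25.1 (14.1–49.2) relative to the median gene. Cdkn2b, its neighbour and another inhibitor of the D-type cyclin kinases, was at 4.96. Both ratios rest on few P12 counts. The P12 cycling cells held 9 UMIs of Cdkn2a and 10 of Cdkn2b, and the P12 neuron-like cells 0 of each. Tfdp1 was at 0.406, Lin9 at 0.403 and Cdk6 at 0.310, and 1 of the 32 canonical targets, Slbp at 2.14, passed the 2-fold limit.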

How the data were processed

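Drop-seq libraries of mouse medulloblastoma cells at 2 ages were used, 1 library each. The P12 file holds raw counts per gene and barcode as the authors deposited them. The P24-30 file holds values that the authors deposited on a natural log scale; all 6195642 values above 0 (100%) came out as whole UMIs of ln(1 + 10000 × share), within 0.01 or, for larger numbers, 0.05%, and these whole UMIs were used. Whether the P12 counts were collapsed by UMI is not stated. The submitters' processing notes name CASAVA and the build mm10. For the aligner, the counting tool, the annotation and the use of strand, the sources used here give nothing.

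The members, lists and comparisons were chosen with earlier results of these data known. Cells were kept at 500 or more UMIs and at most 20% mitochondrial UMIs. Barcodes shared between the libraries could not be counted, since the P24-30 columns carry tags and numbers. No doublet caller was run; an alternative left out the 5% deepest cells. P12 cells were clustered (2000 variable genes without the members, 30 principal components, 15 neighbours, Leiden resolution 1). A group was named from a list with a mean log2 fold of at least 0.5 and at least 3 raised markers. These thresholds, and the rule of 3 other-type markers that set a cell apart, were chosen after seeing the data. A named group also needed at least 50 cells and a median depth of at least 0.5 of the library median. Tag G10 met the limits for the neuron-like list (mean 0.82, 9 raised markers). It stayed unnamed for its depth, a median of 775 UMIs against 2181 in the library. UMIs were summed per group, scaled to CPM, and compared as ratios with exact conditional Clopper-Pearson intervals; no test was possible with 1 library per age. Every member is named; list genes are named from the 2 highest and 2 lowest ratios per list and comparison, and the 3 genes most like each member with 200 UMIs, of which 1 is not reported here. Gene positions are from GENCODE vM21 on mm10, and promoters from RefSeq. The procedure was tested on simulated data. Software was Python 3.11.15, numpy 2.4.6, scipy 1.17.1, scanpy 1.11.5, anndata 0.12.19, scikit-learn 1.9.0, igraph 0.11.9 and matplotlib 3.10.9. Alternatives covered cell filters, depth, scaling, gene minimum, clustering, tags, score ranges and thinning.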

Additional observations from a re-analysis of the deposited data

How the results depend on the processing

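Of 52 values that sum up a comparison under an alternative, 48 stayed within 1.5 times the reported count and 4 did not. With all barcodes of at least 200 UMIs and no mitochondrial limit, 5 members in place of 8 were lower in P12 neuron-like cells. With score ranges in place of clusters, 2 in place of 4 differed between P12 mitotic and G1/S cells. With tag G16 alone as the cycling group, 2 in place of 4 were lower in P24-30 neuron-like tags. The 2 were E2f8 and E2f5, and E2f5 was not called in the reported comparison. E2f2 (9 UMIs in neuron-like tags and 13 in G16), E2f7 (6 and 13) and Rbl1 (12 and 28) fell under the 50 UMIs needed. They were therefore not counted there. Without division by the median gene, 1 in place of 0 (Rb1) differed between the ages. The cause of the other changes was not tested. Of 469 values of single genes under an alternative, 438 stayed close, 31 moved and 0 changed direction among called values. The mitotic over G1/S comparison of the P24-30 tags and the versions without G12 and G14, without G14 and with G13 alone were added after seeing the data. Leiden resolution 0.5 gave no separate G1/S group at P12 and so no value there. No paired analysis was possible because there was 1 library per age. Depth limits E2f2, E2f4, Rb1 and Rbl2 most, which had under 50 UMIs over the P24-30 mitotic and G1/S tags.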

Other observations

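Groups that share a name differed in single members. At P12, 2 clusters were named G1/S licensing. The smaller, of 186 cells, had E2f8 at 78.9 CPM against 28.3 CPM in the larger, of 797 cells, a ratio of 2.79 (1.75–4.43), and Rb1 at 54.8 against 28.9 CPM, a ratio of 1.90 (1.12–3.15). E2f1 was at 87.7 and 92.9 CPM there, a ratio of 0.943 (0.648–1.35), and E2f5 at 21.9 and 43.3 CPM, a ratio of 0.506 (0.232–0.987). The leading genes of the smaller cluster included the S-phase genes Rrm2, Tyms and Clspn, and its summed mitosis list was at 16737 CPM against 9028. Its neuron list was also higher, at 5264 CPM against 1929, and its cells were deeper, with a median of 2316 UMIs against 1824. Their part in these ratios was not tested. At P24-30, mitotic tag G1 had E2f7 at 27.7 CPM against 9.90 in mitotic tag G16, a ratio of 2.80 (1.43–5.79), while E2f8 was at 29.4 and 38.8 CPM, a ratio of 0.756 (0.477–1.19). The summed S list was at 5092 CPM in G1 and 3664 in G16, and the mitosis list at 27443 and 34205 CPM. These groups were picked after their values were seen, and nothing was tested.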
